A study of Drosophila melanogaster with 20 samples.

Results

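The nuclear-encoded subunits of the mitochondrial respiratory chain were followed through the last larval hours and into the prepupa of Drosophila melanogaster, in wings and salivary glands. Members were the genes whose symbol begins with ND-, UQCR- or ATPsyn, with COX and a digit, or is SdhA to SdhD, with genes of the mitochondrial genome left out. Of 17606 genes in the matrix 81 carry such a name, and 3 of these (COX1, COX2 and COX3) are mitochondrial, which left 78. Complex I has 40, complex II 4, complex III 8, complex IV 11 and ATP synthase, complex V, 15. In 16 of the 78 the symbol ends in L, L1 or L2 after a subunit's name, and these are called copies here. The namesake is itself a member except for COX6AL and ATPsynepsilonL. The other 62 are the subunit genes themselves. Of the 78, 65 were abundant enough to test, 60 of them subunit genes and 5 of them copies. No sequence is shown, because none was used here.

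The respiratory chain passes electrons from NADH (complex I) and succinate (complex II) through ubiquinone, complex III and cytochrome c to complex IV, which reduces oxygen. Complexes I, III and IV move protons across the inner mitochondrial membrane, and ATP synthase uses the gradient to make ATP. Complex II is also an enzyme of the tricarboxylic acid cycle and moves no protons. Complexes I, III, IV and V contain subunits made from the mitochondrial genome, so their assembly needs both genomes. In the salivary gland, pulses of the steroid ecdysone first switch on the glue protein genes and then, at pupariation, start the programme that ends in the gland's destruction.

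Groups were EcRi wing and EcRi gland at -30 and -6 h, and wild-type (WT) wing and gland at -30, -6 and +6 h, all relative to puparium formation, with 2 libraries in each of the 10 groups. EcRi animals express a hairpin against the ecdysone receptor EcR. They are yw/yw, and in them Vg-GAL4 (a vestigial driver) acts on UAS-Flp, whose recombinase opens the tubulin driver Tub>>CD2>>GAL4. That driver then acts on UAS-EcR-RNAi[104], carried over UAS-GFP, so knockdown depends on where recombination took place. WT animals are labelled +/+; +/+; +/+ and carry no driver, GFP or hairpin, so the genotype comparison includes the difference between lines. All animals are labelled female and were raised at 25 °C. The -30 h larvae had hatched within a window of 4 h and were dissected after a further 72 h, the -6 h animals were wandering larvae and the +6 h animals were staged as prepupae. Each library pooled at least 60 dissected wings or glands. Whether replicates were dissected from different sets of animals is not stated, and p-values here measure the spread between libraries, which may be technical.

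Libraries held 14949899 to 22626726 reads. Levels are in scaled RPM, reads scaled to library size (RPM) and divided by a TMM factor that sets the bulk of genes level between libraries. The factors were 0.198 and 0.252 in WT glands at -6 h, where the 12 salivary gland markers, glue genes among them, summed to 2060000 to 2930000 scaled RPM, against 13300 to 35800 in the other gland groups. They reached 2.01 in wings. Replicate 2 of WT glands at -30 h stood apart, with 6342 genes detected against 9399 to 11461 in the other libraries. The median difference between replicates over the tested members was 0.42 (log2) in WT glands at -30 h and 0.41 at -6 h, against 0.13 to 0.24 in the other groups. EcR itself had 247 and 191 scaled RPM in EcRi glands at -6 h, against 1320 and 1268 in WT glands. At -30 h it had 302 and 280 in EcRi glands, against 278 and 301 in WT glands, so the knockdown was not visible there in EcR reads. In wings EcR had 127.1 and 125.2 in EcRi at -6 h, against 195.1 and 161.4 in WT (log2 -0.49, limma adjusted p = 0.133). At -30 h it had 214.4 and 185.7 in EcRi wings, against 348.0 and 314.2 in WT wings (-0.73, limma adjusted p = 0.0126), below 2-fold at both times. EcR reads cannot be told apart from reads of the hairpin. The tissue labels were matched by the markers. The 12 wing disc markers summed to at least 1600 scaled RPM in each wing library and at most 94.8 in each gland library. The salivary gland markers summed to 7730 and 10600 in WT wings at -6 h, and to 303 to 1720 in the other wing groups. Fat body markers summed to 339 and 2960 in the 2 libraries of WT wings at -30 h, so some wing libraries hold reads of genes typical of other tissues.

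Per kilobase of exon, the subunit genes spanned a wide range, and the medians of complexes III, IV and V lay above those of I and II in WT glands at -30 h. In WT glands at -30 h the median level per exonic kilobase was 41.7 scaled RPM in complex I, 47.8 in complex II, 98.6 in complex III, 132 in complex IV and 123 in complex V. ATPsynC, the c subunit that forms the membrane rotor of ATP synthase, was the highest member there at 720 scaled RPM per exonic kilobase. COX6B, a small subunit of cytochrome c oxidase, led complex IV at 397. The lowest subunit gene that was tested was ND-MWFE, an accessory subunit of complex I, at 8.74. In WT wings at -30 h the medians were lower, 25.4 in complex I and 79.6 in complex V, and ATPsynC again led at 476. By -6 h ATPsynC had lost its lead in WT glands, where ATPsynCF6, the F6 subunit of the peripheral stalk, had the highest mean in complex V at 224. That lead rests on replicate 2. ATPsynCF6 had 98.6 and 217 scaled RPM in replicates 1 and 2, against 137 and 107 for ATPsynF. COX6B shares 81.9% of its span with CG18809 on the same strand, and ATPsynCF6 shares none. CG18809 had a log2 fold change of -0.10 in WT glands between -30 and -6 h.

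**Figure D1:**
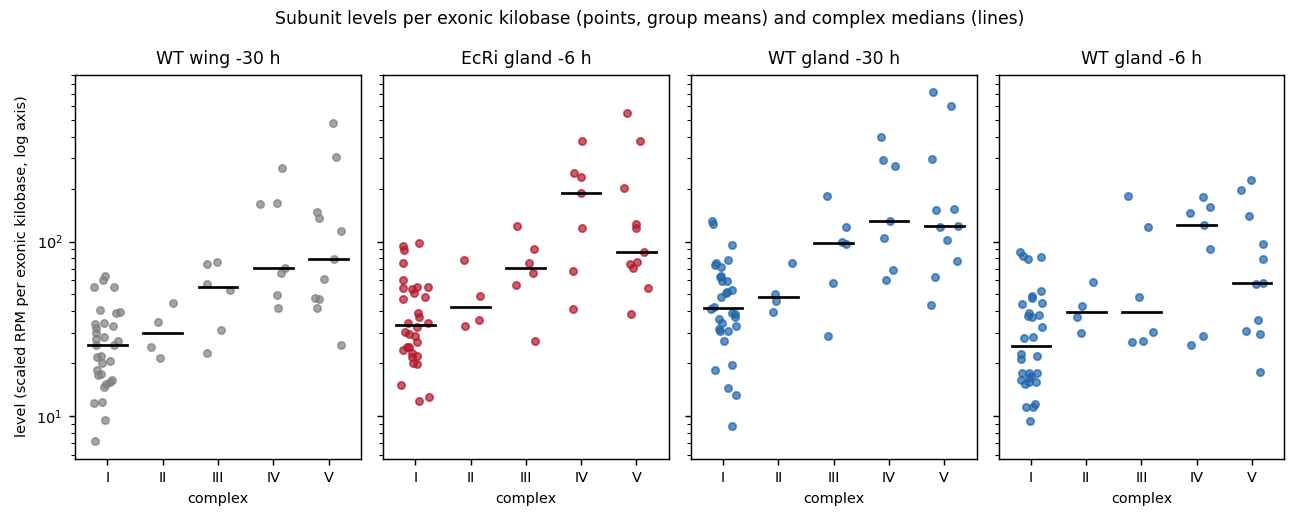
Level per exonic kilobase (scaled RPM, log axis) of the 60 tested subunit genes by complex in 4 groups; points are group means of 2 libraries and lines are complex medians. The medians of complexes IV and V lie above those of I and II in all 4 panels, and the top of complex V is lower in WT gland at -6 h (224) than at -30 h (720).

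In WT glands the chain was at its highest at -30 h, and much of it fell before pupariation. The 78 members together had 6242 and 6677 scaled RPM at -30 h, 2870 and 3329 at -6 h and 2174 and 2190 at +6 h. At -6 h against -30 h, 18 of the 65 tested members fell at least 2-fold with an adjusted p below 0.05 (limma with Benjamini-Hochberg adjustment over 10160 genes), and none rose. Among all genes tested 34.7% were called, 16.7% lower and 18.1% higher. The median log2 fold change was -0.67 over the members and 0.06 over all genes. Falls were called in 7 of 32 tested subunits of complex I, 2 of 6 of complex III, 3 of 7 of complex IV and 5 of 11 of complex V, and in none of the 4 of complex II. The last call was COX5BL, a copy. With median-of-ratios scaling 12 fell and 2 copies rose, and with library size as the only scaling 59 fell. In that last fit the median of all genes shifted lower too, so the 59 are not read as a result about the members.

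The lowest fold change among the members was in ATP synthase. ATPsynC (chromosome 3R, 31216145 to 31219630, dm6) had 1220 and 1471 scaled RPM in WT glands at -30 h, 158 and 202 at -6 h, and 110 and 130 at +6 h. The groups do not overlap and the log2 fold change at -6 h was -2.90 ± 0.15 (SE; limma adjusted p = 4.42e-09). ATPsynbeta, which carries the catalytic sites, had 221 and 360 at -30 h, 80.0 and 88.9 at -6 h, and 120 and 138 at +6 h. It fell by 1.73 on the log2 scale at -6 h (SE 0.19), and its +6 h libraries lay above both -6 h libraries. ATPsynF, a small subunit of the membrane part, had 107 and 137 at -6 h and 362 and 378 at -30 h, a log2 change of -1.60 ± 0.17. ATPsyngamma, the turning central stalk (-1.39), and ATPsynB, of the peripheral stalk (-1.24), were also called. These last 2 calls were lost without replicate 1 of WT glands at -30 h (-0.87 and -0.90) or replicate 2 at -6 h (-0.82 and -0.89). The 6 subunits of complex V that were not called had log2 fold changes of -0.96 (ATPsynE), -0.95 (ATPsynD), -0.94 (ATPsyndelta), -0.85 (ATPsynO), -0.50 (ATPsynCF6) and -0.10 (ATPsynG).

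In complex I the fall lay partly in the core subunits, those that carry out electron transfer and are conserved in bacteria. ND-75, which holds several iron-sulfur clusters, had 119 and 160 scaled RPM in WT glands at -30 h, 34.7 and 47.2 at -6 h, and 14.72 and 16.03 at +6 h. It was lower in each later group than in every library of the earlier one, with a log2 change of -1.74 ± 0.17 at -6 h (limma adjusted p = 1.92e-06). ND-30 fell by 1.64 on the log2 scale, with 9.43 and 12.5 at -6 h and 27.6 and 47.2 at -30 h. ND-51, the subunit that binds NADH (-1.20), and ND-49, near the quinone site (-1.12), were called too. Each lost the call without 1 library at each time: ND-51 stood at -0.69 without replicate 2 of WT glands at -30 h and at -0.98 without replicate 1 at -6 h. ND-49 stood at -0.94 without replicate 1 at -30 h and at -0.96 without replicate 2 at -6 h. ND-20 had a log2 fold change of -0.85 and ND-23 of -0.58, below 2-fold. ND-24 had 18.4 and 19.1 scaled RPM at -6 h, against 41.5 and 0 at -30 h, the 0 being in the library with few genes detected, and its fitted log2 fold change of 1.60 was not called (limma adjusted p = 0.248). Among the accessory subunits, ND-ACP, the acyl carrier protein of the complex, had 13.8 and 23.5 at -6 h and 47.2 and 76.0 at -30 h, a log2 change of -1.68 ± 0.25. ND-B14.7 (-1.27) and ND-42 (-1.16) were called with it. Both lost the call without replicate 2 at -6 h (-0.84 and -0.85) and without 1 library at -30 h, replicate 2 for ND-B14.7 (-0.94) and replicate 1 for ND-42 (-0.85).

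In complex III the fall was called in UQCR-C1 and UQCR-Q. UQCR-C1, a core protein of the complex, had 141 and 186 scaled RPM in WT glands at -30 h, 36.3 and 51.4 at -6 h, and 20.5 and 24.04 at +6 h. The 3 times do not overlap, and the log2 change at -6 h was -1.88 ± 0.19 (limma adjusted p = 2.69e-06). UQCR-Q stood at -1.01, and at -0.79 without replicate 2 at -30 h or -0.63 without replicate 1 at -6 h. Of the rest UQCR-C2 stood at -0.89, UQCR-11 at -0.12, UQCR-6.4 at -0.03 and UQCR-14 at 0.03.

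In complex IV, COX4 had 69.7 and 99.4 scaled RPM at -30 h, 24.6 and 38.4 at -6 h and 19.8 and 26.0 at +6 h, with a log2 change of -1.41 ± 0.23 at -6 h. COX6B (-1.13) and COX8 (-1.03) were also called, while COX5B stood at -0.92, COX5A at -0.90, COX7A at -0.20 and COX7C at -0.10. All 3 calls were lost when single libraries were left out: COX4 stood at -0.98 without replicate 1 at -30 h and at -0.95 without replicate 2 at -6 h. COX6B stood at -0.75 without replicate 1 at -30 h and at -0.84 without replicate 1 at -6 h. COX8 stood at -0.95, -0.94 and -0.71 without replicate 1 at -30 h, replicate 2 at -30 h and replicate 1 at -6 h. Without replicate 2 of WT glands at -30 h, the library with few genes detected, 18 members fell, 13 of them among the 18 above, and none rose. Of the 18 calls 7 held under every alternative tried and every left-out library: ATPsynC, ATPsynbeta, ATPsynF, ND-75, ND-30, ND-ACP and UQCR-C1.

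**Figure D2:**
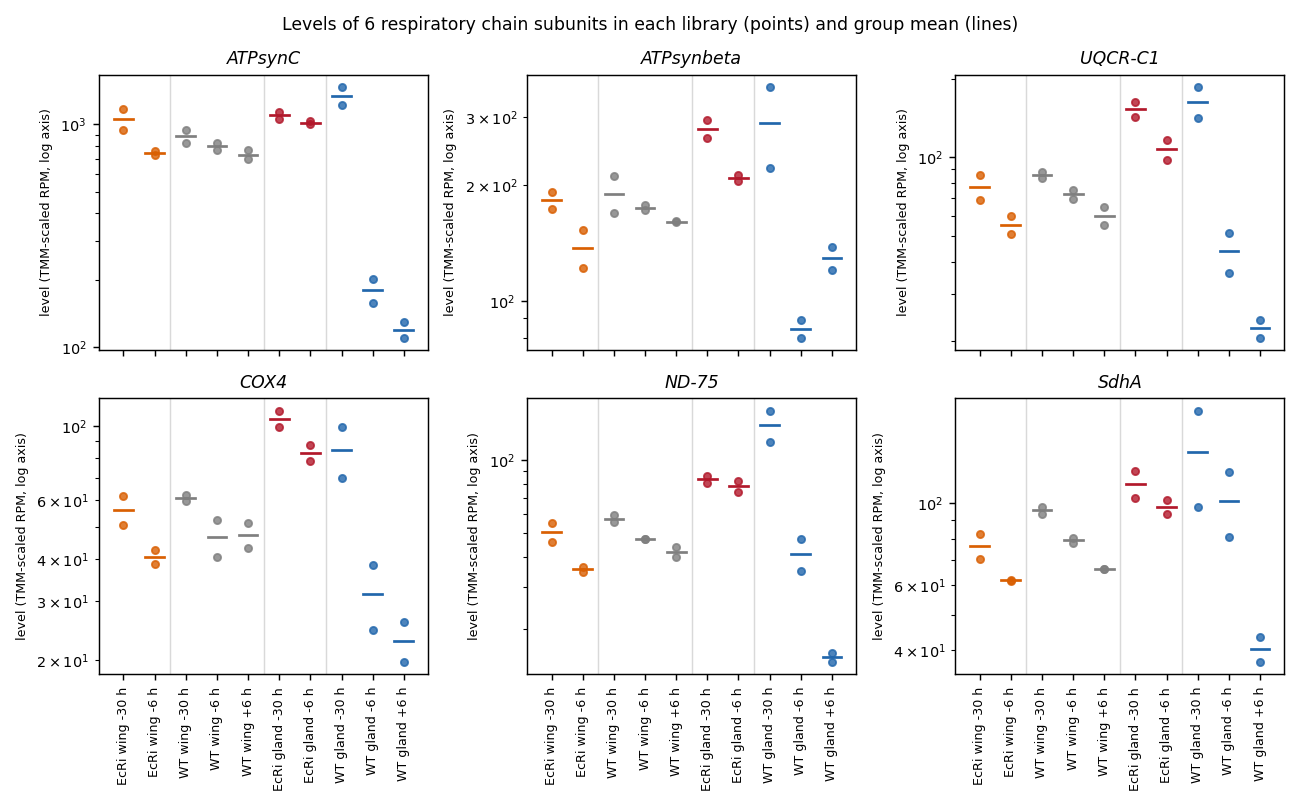
Level (scaled RPM, log axis) of 6 subunits, 1 or 2 from each complex, in every library; points are libraries and lines are means of 2. ATPsynC lies at 1007 and 1033 in EcRi gland at -6 h and at 158 and 202 in WT gland at -6 h, and SdhA in WT gland lies lower at +6 h (37.3 and 43.6) than at -6 h (81.0 and 121).

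Between -6 and +6 h, 10 of the 65 tested members fell in WT glands and none rose, where 30.0% of all genes were called, 16.3% lower and 13.7% higher. The members' share of lower calls, 15.4%, was close to that of all genes. The median log2 fold change was -0.50 over the members and -0.08 over all genes. ATPsynE, a small membrane subunit of ATP synthase, had 10.6 and 12.3 scaled RPM at +6 h and 35.8 and 47.8 at -6 h, a log2 change of -1.77 ± 0.33 (limma adjusted p = 5.21e-04). ATPsyndelta, of the central stalk (-1.46), ND-75 (-1.34), ND-B17.2 (-1.27), ND-PDSW (-1.16), ND-B14.5A (-1.05) and ND-ASHI (-1.01) were called as well. These calls depend on the scaling: with library size as the only scaling 3 members rose and none fell, and with median-of-ratios scaling 5 fell. Library size alone gave a median of 0.25 over the members and 0.21 over all genes. With 1 library left out 6 were called without either -6 h library and 4 without either +6 h library, and ATPsynE was the 1 call that held in all 4 of these fits. ATPsyndelta stood at -0.93 and ND-B17.2 at -0.86 without replicate 2 at -6 h, and ND-75 at -0.88 without replicate 1 at -6 h. ND-PDSW stood at -0.58 without replicate 1 at +6 h, and ND-B14.5A at -0.42 and ND-ASHI at -0.55 without replicate 1 at -6 h.

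Complex II, called in no subunit at -6 h, was called in 3 of its 4 subunits in this second interval. SdhA, the flavoprotein that oxidises succinate, had 97.6 and 177 scaled RPM at -30 h, 81.0 and 121 at -6 h and 37.3 and 43.6 at +6 h. It fell by 1.28 on the log2 scale between -6 and +6 h (SE 0.23, limma adjusted p = 5.14e-04), and its log2 fold change from -30 to -6 h was -0.40 (limma adjusted p = 0.187). SdhB, the iron-sulfur subunit, had 89.6 and 92.9 at -30 h, 60.8 and 81.2 at -6 h, and 30.7 and 32.7 at +6 h. Its log2 fold changes were -0.37 in the first interval and -1.13 in the second, which was called. SdhC, which anchors the enzyme in the membrane, had -0.58 and then -1.01, the second called, and SdhD, the other anchor, 0.17 and then -0.78, neither called. Whether the 2 intervals differ for these genes was not tested. Each of the 3 calls was lost with single libraries left out. SdhA stood at -0.73 without replicate 1 at -6 h and at -0.90 without replicate 2 at +6 h. SdhB stood at -0.71, -0.97 and -0.82 without replicate 2 at -6 h, replicate 1 at +6 h and replicate 2 at +6 h. SdhC stood between -0.58 and -0.99 without each of the 4 libraries.

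**Figure D3:**
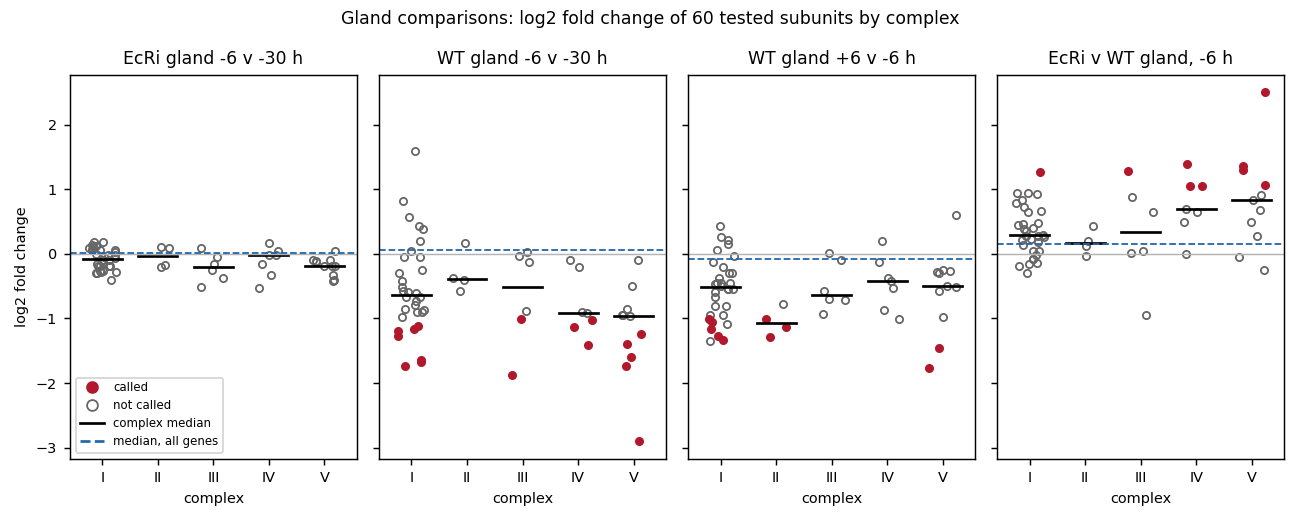
Log2 fold change of the 60 tested subunit genes by complex in 4 gland comparisons; filled points are called (adjusted p below 0.05 and at least 2-fold), lines are complex medians and dashes the median of all genes. EcRi gland between -30 and -6 h has no called point, WT gland has 17 in the same interval, and complex II has called points in the interval to +6 h.

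In EcRi glands no tested member was called from -30 to -6 h, where 4.40% of all genes were called, 2.66% higher and 1.74% lower. The median was -0.10 over members and 0.01 over all genes. No member was called in this interval under the alternatives tried or without any 1 of the 4 libraries. The 78 members summed to 5103 and 5209 scaled RPM in EcRi glands at -6 h and 5594 and 5684 at -30 h. ATPsynC had 1007 and 1033 at -6 h and 1063 and 1137 at -30 h, UQCR-C1 98.1 and 117 at -6 h and 143 and 163 at -30 h. UQCR-C1 was lower in both libraries of -6 h, with a log2 fold change of -0.51 that was not called.

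At -6 h 9 members were higher in EcRi than in WT glands, and none was lower. Of all genes 27.0% were called, 17.2% higher and 9.78% lower, so the members' share of higher calls, 13.8%, was below that of all genes. The median log2 difference was 0.36 over the members and 0.16 over all genes. Calls lay in complex V (4 of 11 tested), complex IV (3 of 7), complex III (1 of 6) and complex I (1 of 32), with none of the 4 of complex II. ATPsynC was 2.51 ± 0.15 higher on the log2 scale (limma adjusted p = 2.32e-08), with 1007 and 1033 scaled RPM in EcRi glands, against 158 and 202 in WT glands. ATPsynbeta was 1.30 ± 0.19 higher, with 205 and 212 in EcRi glands, against 80.0 and 88.9 in WT glands. COX4 (1.40), ATPsyngamma (1.37), UQCR-C1 (1.29), ND-ACP (1.27), ATPsynB (1.07), COX6B (1.05) and COX7A (1.05) followed. The libraries of the groups do not overlap for 36 of the 65 tested members, these 9 among them, so this does not set the 9 apart. The share over all genes without overlap was not counted, so the 36 are not read as a trait of the members. The 7 core subunits of complex I had differences between 0.27 (ND-23) and 0.93 (ND-75), none of them called. SdhA differed by -0.03, SdhB by 0.44, SdhC by 0.13 and SdhD by 0.20.

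ATPsynC and ATPsynbeta kept the call in each fit, and the other 7 lost it without 1 library or more. Without replicate 2 of WT glands at -6 h COX4 stood at 0.99, UQCR-C1 at 0.94, ATPsyngamma at 0.85, ATPsynB at 0.76 and COX7A at 0.89, and 4 members were called. Without replicate 1 of WT glands ND-ACP stood at 0.85 and COX6B at 0.81. Leaving out an EcRi library at -6 h lost COX6B (0.83 without replicate 1), COX7A (0.97 without replicate 2) and ATPsynB (0.90 without replicate 2). With median-of-ratios scaling 6 were higher and 1, UQCR-6.4, lower (-1.18). With library size as the only scaling 60 were higher and none lower. The share of all genes called in that fit is not given here, so this count is not read as a result about the members. At -30 h no member was called between EcRi and WT glands, where 13.6% of all genes were called, 10.2% higher and 3.39% lower. Without replicate 1 of WT glands at -30 h, which leaves the library with few genes detected as the only WT library of that time, 9 members were called, 7 higher and 2 lower. With library size as the only scaling 20 were lower at -30 h.

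The difference between genotypes in the change from -30 to -6 h was itself tested. In 11 members the change was higher in EcRi than in WT glands, and in 1, the copy UQCR-11L, it was lower, where 26.6% of all genes were called, 14.3% higher and 12.3% lower. The members' share of higher calls was 16.9%. The median of this difference was 0.62 over the members and -0.09 over all genes. ATPsynC had a log2 fold change of -0.11 in EcRi glands, against -2.90 in WT glands, a difference of 2.79 ± 0.21 (limma adjusted p = 6.57e-07). The difference was 1.73 ± 0.36 for ND-ACP, 1.65 ± 0.25 for ND-75, 1.41 ± 0.24 for ATPsynF and 1.37 ± 0.28 for UQCR-C1. Without replicate 2 of WT glands at -30 h 15 members had a higher change and none a lower one. These 5 were called under each alternative tried and without any 1 library. ND-30 (1.35; 0.97 without replicate 2 of WT glands at -30 h) and ATPsynbeta (1.31; 0.81 without replicate 1 of the same group) each lost the call without that library. ATPsyngamma, COX6B, ND-49 and COX4, at 1.30, 1.11, 1.10 and 1.07, each lost the call in 4 or 5 of the 8 fits with 1 library left out.

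In wings almost no member was called over the same times. Of 65 members none was called in EcRi wings at -6 h against -30 h, where 3.10% of all genes were called, 2.56% higher and 0.541% lower. None was called in WT wings between -30 and -6 h, where 5.30% of all genes were called, 3.07% higher and 2.22% lower. In WT wings between -6 and +6 h 1 rose and none fell, where 16.7% of all genes were called, 10.6% higher and 6.06% lower. The 1 call was the copy UQCR-11L, described below. With library size as the only scaling 2 members fell in that interval. Most values were below 0, though none was called: 63 of the 65 lay below 0 in EcRi wings (median -0.28, all genes 0.02), 49 in WT wings at -6 h (median -0.17, all genes 0.00) and 47 in WT wings at +6 h (median -0.12, all genes 0.00). ATPsynC in wings had 733 and 763 scaled RPM in EcRi at -6 h and 945 and 1177 at -30 h. In WT wings it had 829 and 948 at -30 h, 768 and 828 at -6 h, and 697 and 764 at +6 h.

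The tissues were then compared at each time. At -30 h 13 members were lower in WT wings than in WT glands and 1, the copy ATPsynepsilonL, was higher, where 30.9% of all genes were called, 12.1% lower and 18.8% higher. The median was -0.74 over the members and 0.14 over all genes. ND-51 (-1.38), UQCR-6.4 (-1.28), ND-75 (-1.25), SdhC (-1.04) and ATPsynCF6 (-1.10) are examples from complexes I, III, II and V. ND-75, UQCR-6.4 and ATPsynepsilonL kept the call without any 1 library. ATPsynepsilonL passed the filter for testing only through wing libraries, so its call is not read as support for a tissue difference. Without replicate 1 of WT glands at -30 h 22 were called, 16 lower and 6 higher. Without replicate 2 of that group 8 were called, 7 lower and 1 higher, and ND-51 stood at -0.87, SdhC at -0.79 and ATPsynCF6 at -0.85, none of them called. SdhC also lost the call without replicate 2 of WT wings (-0.90), and ATPsynCF6 without either wing library (-1.08 and -1.13), on the adjusted p. Library size as the only scaling gave 4 higher and none lower, with a median of 0.02 over the members and 0.69 over all genes.

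At -6 h WT wings were higher than WT glands for 3 members and lower for 4, where 44.4% of all genes were called, 25.3% higher and 19.2% lower. ATPsynC was 2.15 ± 0.15 higher, with 768 and 828 scaled RPM in wings, against 158 and 202 in glands, and ATPsynbeta was 1.04 higher (0.89 and not called without replicate 2 of WT glands). UQCR-6.4 was lower (-1.35), with 33.8 and 43.8 in wings, against 80.1 and 124 in glands. SdhD (-1.25) was also lower, as were ND-B14 and ND-B15, both at the 2-fold limit, and these 4 differences were above 0 with library size as the only scaling, under which 63 members were higher and none lower. Median-of-ratios scaling gave 2 higher and 6 lower. ND-B14 and ND-B15 were not called without replicate 1 of WT wings (-0.91 and -0.98). The same held without 1 WT gland library, replicate 2 for ND-B14 (-0.84) and replicate 1 for ND-B15 (-0.88).

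At +6 h WT wings were higher for 8 members and lower for 2, where 47.4% of all genes were called, 30.8% higher and 16.5% lower. The median was 0.32 over the members and 0.30 over all genes. ATPsynC stood 2.60 ± 0.15 higher, with 697 and 764 scaled RPM in wings, against 110 and 130 in glands. ATPsyndelta (1.75), ATPsynE (1.70), ND-75 (1.39), UQCR-C1 (1.39), ATPsynD (1.07) and COX4 (1.02) were higher, and ND-B17 (-1.56) and UQCR-14 (-1.04) lower. Both of the lower calls were lost without replicate 2 of WT wings at +6 h (ND-B17 -1.20, UQCR-14 -0.93) and lay above 0 with library size as the only scaling, which gave 56 higher and none lower. Median-of-ratios scaling gave 4 higher and 2 lower. UQCR-C1 stood at 0.93 without replicate 2 of WT glands. ATPsynD stood at 0.84 and 0.66 without either WT gland library and at 0.99 without replicate 2 of WT wings. COX4 stood at 0.93 and 0.49 without either WT gland library and at 0.90 without replicate 1 of WT wings. None of these 3 was then called.

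The change from -6 to +6 h differed between wing and gland in 11 members, all with the higher value in wings, where 27.0% of all genes were called, 16.8% higher and 10.2% lower. The members' share of higher calls was 16.9%, close to that of all genes. The median of this difference was 0.43 over the members and 0.14 over all genes. The 11 were ATPsynE (1.55), ND-B14 (1.38), ATPsyndelta (1.32), SdhD (1.19), ND-75 (1.17), ND-B17.2 (1.16), ND-ASHI (1.14), ND-PDSW (1.08), COX7A (1.06), ND-23 (1.04) and SdhA (1.02). None of them held without every library in turn. Without replicate 1 or 2 of WT glands at -6 h 5 and 4 members were called, and without replicate 1 or 2 at +6 h 2 and 4. Without replicate 1 of WT wings at -6 h 6 were called, and 7 without either wing library of +6 h. Library size as the only scaling gave 17 members lower and none higher, and 9 of the 11 then lay below 0. Median-of-ratios scaling gave 2 higher and 1 lower.

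**Figure D4:**
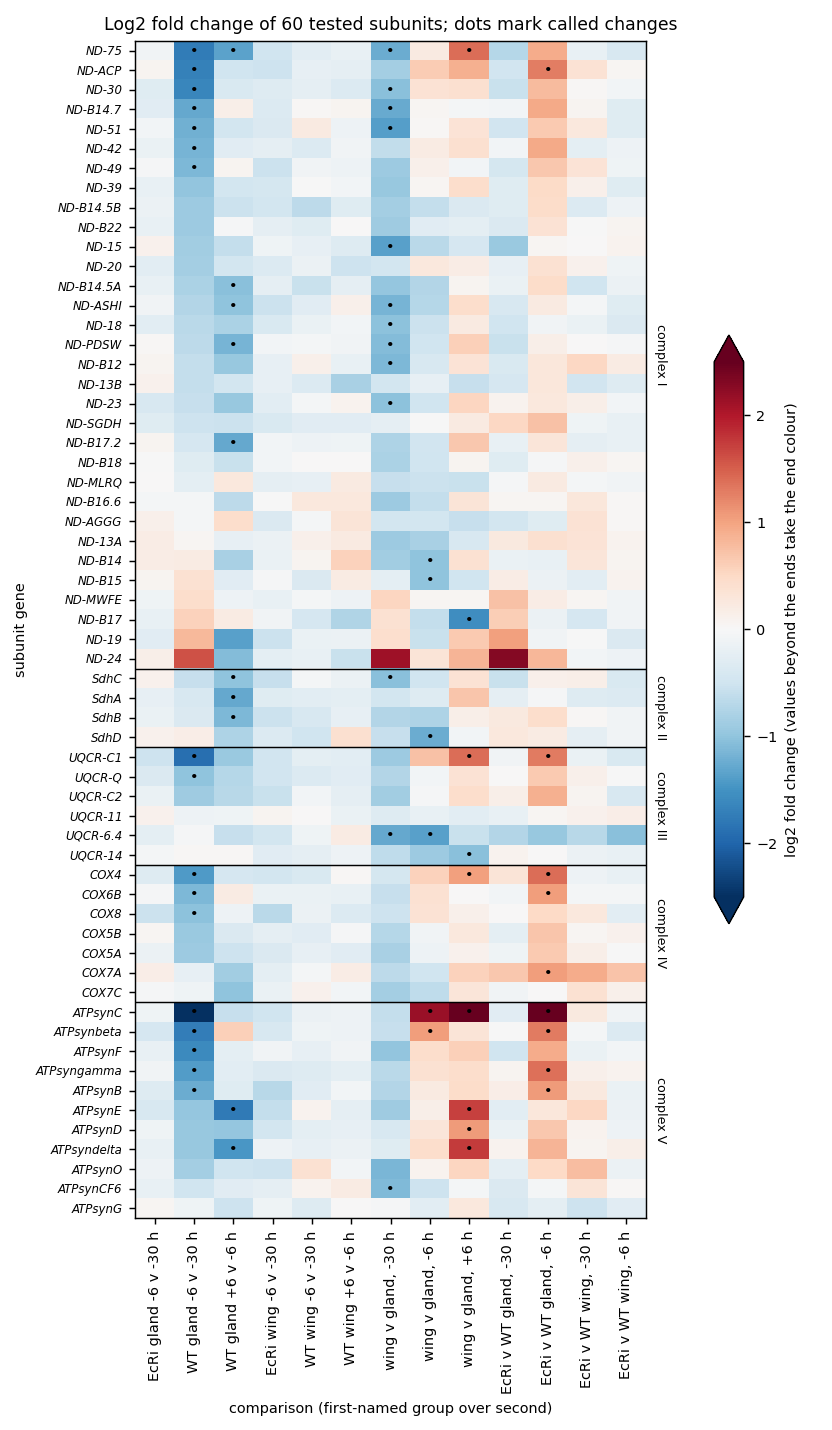
Log2 fold change (colour) of the 60 tested subunit genes, in rows by complex, in 13 comparisons, in columns; dots mark called changes. Called changes lie in the columns that contain WT gland, and the EcRi and WT wing columns hold none.

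Against WT, EcRi wings, in which EcR was less than 2-fold lower, had no called member at -30 h (2.20% of all genes called, 0.856% higher and 1.35% lower) or at -6 h (1.78% called, 1.23% higher and 0.551% lower). The median log2 difference was 0.05 at -30 h and -0.10 at -6 h, with -0.02 and 0.00 over all genes. Without replicate 1 of EcRi or of WT wings at -30 h 1 member was called, and at -6 h 1 was called with library size as the only scaling. A pair of subunits, chosen here after their values were seen, differed in the same direction in both tissues and at both times. COX7A, of complex IV, had 65.5 and 83.2 scaled RPM in EcRi wings at -6 h, against 43.3 and 45.8 in WT wings. Its difference was 0.72 in wings at -6 h, 0.92 in wings at -30 h, 1.05 in glands at -6 h and 0.67 in glands at -30 h, and the gland value at -6 h was the one called. UQCR-6.4, of complex III, had 16.9 and 19.3 in EcRi wings at -6 h, against 33.8 and 43.8 in WT wings. Its difference was -1.05 in wings at -6 h, -0.70 in wings at -30 h, -0.95 in glands at -6 h and -0.73 in glands at -30 h, and none was called. With the replicate number as a block 1 member, lower in EcRi, was called in wings at -6 h. Of 65 members 5 were higher and 4 lower in EcRi in all 4 of these comparisons, and 56 were mixed. The share over all genes was not counted, so this count is not read as a trait of the members.

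Few reads were counted for most of the 16 copies. Of these, 11 did not reach the level needed for a test: ND-B14.5AL, ND-20L, ND-49L, ND-24L, UQCR-14L, COX4L, COX6AL, COX7AL, ATPsynbetaL, ATPsynGL and ATPsynCF6L had 59 reads or fewer over all 20 libraries, and ATPsynCF6L is listed at 0. ATPsynCF6L lies wholly within Con and COX6AL within Cyp4aa1, both on the same strand, and ND-B14.5AL and ND-49L lie wholly over a gene on the opposite strand. Their namesakes that were tested, among them COX4, ATPsynbeta and ND-49, are described above. The subunit genes ND-MNLL and ND-B8 are also listed at 0 in every library, as is Tim10 of the import list. ND-MNLL lies wholly over CG45089 on the same strand, and ND-B8 overlaps Gs1l over 12.2% of its span on the opposite strand. Whether the counting gave these values of 0 was not tested, and they are not read as absence of the RNA.

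Of the 5 copies tested, ATPsynepsilonL was read mainly in wings. It had 0.518 and 0.767 scaled RPM in EcRi wings at -6 h and 0.908 and 1.05 at -30 h, and 1.12 to 1.61 in the 6 WT wing libraries. EcRi glands had 0.0601 to 0.246, and the 6 WT gland libraries no read. ATPsynepsilonL was counted among the members called higher in WT wings than in WT glands at each time. It passed the filter for testing only through wing libraries, so these calls are not read as support for a tissue difference. A limit of 3 reads per library puts WT wings at least 9.35-fold higher than WT glands at -30 h, at least 2.11-fold higher at -6 h and at least 3.65-fold higher at +6 h. COX5BL had no read in WT glands at -6 and +6 h, and 0.0474 and 8.61 scaled RPM at -30 h. Its call at -6 h was lost without the library with few genes detected (-0.07), and it lies wholly within Trmt6 on the other strand. UQCR-11L had 4.86 and 4.90 in WT wings at +6 h and 0.965 and 2.33 at -6 h, a log2 change of 1.20 ± 0.31 (limma adjusted p = 0.0107). The call was lost without replicate 1 of WT wings at -6 h (0.82) and without either library at +6 h (1.20 and 1.19, neither past the adjusted p). UQCR-11L lies wholly within Acsl on the same strand, and Acsl rose in the same interval (1.59 ± 0.21). UQCR-11 itself had 32.0 and 33.8 at +6 h and 32.7 and 41.8 at -6 h. ND-51L1, within Smurf, and ND-51L2, within Trpm, stayed at or below 4.72 and 0.943 scaled RPM, against 15.99 to 87.92 for ND-51.

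Related mitochondrial genes were read as lists, all chosen with earlier results of these data known. Among all genes tested 16.7% were called lower and 18.1% higher in WT glands at -6 h against -30 h. Of 9 tested chain subunits under other names 4 fell in WT glands at -6 h against -30 h and none rose, with a median of -0.79. Among them cytochrome c1 (Cyt-c1) changed by -2.59, cytochrome c (Cyt-c-p) by -2.51 and blw, the alpha subunit of ATP synthase, by -2.38. Of 19 pyruvate and tricarboxylic acid cycle enzymes 13 fell and 1 rose, with a median of -1.25. Pdk, the kinase that inactivates pyruvate dehydrogenase, was the one that rose, by 3.53, and Pdha, a subunit of that enzyme, changed by -2.23. Of 17 genes of carriers, import and dynamics 11 fell and none rose, with a median of -2.58. The ATP carrier sesB changed by -3.81, the outer membrane channel porin by -2.58 and the chaperone Hsp60A by -5.21, all called. Of 13 mtDNA and regulator genes 6 fell and 2 rose, with a median of -1.31. In that list srl, the fly PGC-1 homologue, changed by -3.99, Myc by -2.99 and TFAM, which packages mtDNA, by -1.54. Of 8 assembly factors 3 fell and 1 rose.

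In EcRi glands none of these lists had a called gene between -30 and -6 h, where 4.40% of all genes were called. At -6 h EcRi glands were higher than WT glands for 3 of 9 chain subunits under other names, 6 of 19 cycle enzymes, 11 of 17 carrier and import genes, 6 of 13 regulators and 3 of 8 assembly factors. In these 5 lists 1 gene, Pdk of the cycle enzyme list, was lower (-1.53). In this comparison 17.2% of all genes were called higher and 9.78% lower. Of 8 tested protein genes of the mitochondrial genome 1 fell (ATP6, -2.13) and none rose in WT glands at -6 h, with a median of -0.22. COX1, the catalytic subunit of complex IV, had a log2 fold change of -0.50, not called, and COX4 of the same complex -1.41. In EcRi glands the 8 genes of the mitochondrial genome had a median of -0.68 from -30 to -6 h, with none called, against -0.10 over the members. The EcRi minus WT difference in this change had a median of -0.32 in them and 0.62 over the members. The difference between the genomes was not tested. Of the 13 protein genes 9 had values here.

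**Figure D5:**
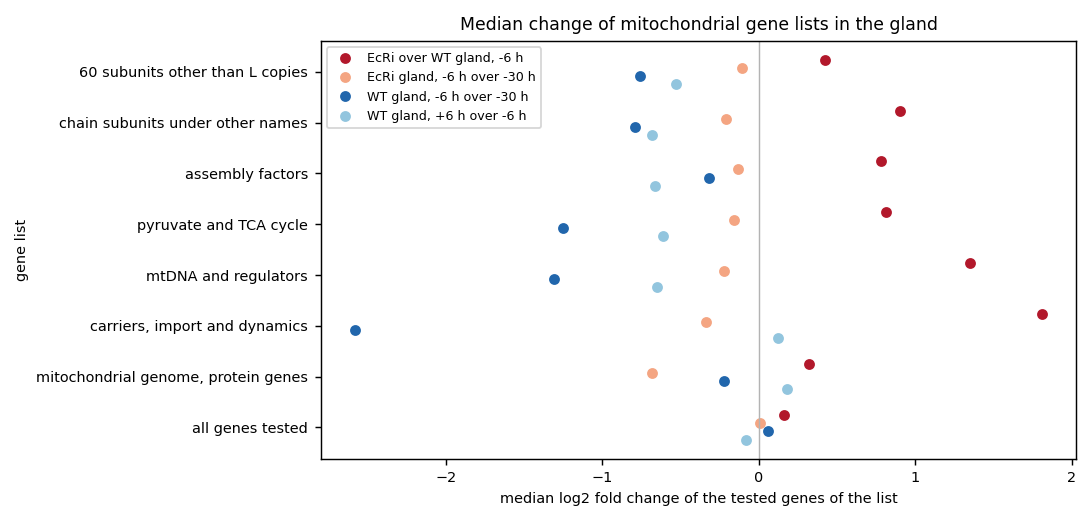
Median log2 fold change of the tested genes of each mitochondrial gene list in 4 gland comparisons, with all genes tested at the foot. For the 60 subunit genes the median is -0.76 in WT gland at -6 h over -30 h and -0.11 in EcRi gland. In WT gland the list of carriers, import and dynamics moves farther (-2.58) and the mitochondrial genome's genes less (-0.22). In EcRi gland the mitochondrial genome's genes move farther (-0.68) than the subunit genes.

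Markers of other cells moved between the gland groups. Of all genes 17.2% were called higher and 9.78% lower in EcRi than in WT glands at -6 h. Of 8 tested blood cell markers 3 were higher in this comparison and none was lower. The summed level of that list was 77.9 to 95.1 scaled RPM in EcRi glands and 86.7 to 87.2 in WT glands at -6 h, where eater, lz and PPO1 had no read. In WT glands at -30 h it was 17.4 to 48.7. In WT glands at -6 h against -30 h 18.1% of all genes were called higher and 16.7% lower. Of 10 fat body markers 4 rose and 1 fell in this interval. Their sum was 6140 to 10100 in EcRi glands at -6 h and 16200 to 23600 at -30 h. In WT glands it was 4270 to 8000 at -30 h, 7500 to 8230 at -6 h and 2600 to 2830 at +6 h, with DptB at 0 at -6 h. In WT glands at +6 h against -6 h 13.7% of all genes were called higher and 16.3% lower. Of 12 muscle and myoblast markers 2 rose and 2 fell in WT glands at -6 h against -30 h, and 4 rose at +6 h. Their sum was 266 to 290 in EcRi glands at -6 h and 302 to 648 at -30 h. In WT glands it was 275 to 321 at -30 h, 618 to 721 at -6 h and 1620 to 1880 at +6 h. The part of these cells in the results was not tested. In bulk tissue fewer cells of a type and less RNA per cell cannot be told apart.

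Reads were counted over whole gene spans, introns included, and use of strand is not stated, so reads of overlapping genes may be split or shared. Of the 78 members 14 overlap another gene on the same strand and 33 on the opposite strand. Of the 7 members with the most stable fall, UQCR-C1, ND-75, ND-ACP and ND-30 overlap none, ATPsynF overlaps over 0.5% of its span and ATPsynbeta over 8.0%. The span of ATPsynC overlaps over 11.4%, where RNaseP:RNA lies within it, and RNaseP:RNA rose in WT glands at -6 h against -30 h (1.64 ± 0.33). UQCR-6.4 overlaps POSH over 32.9% of its span, UQCR-14 CG32576 wholly and ND-ASHI Fum1 over 37.4%, each on the opposite strand. ATPsyndelta overlaps CG2962 over 40.3% of its span. For EcRi against WT, POSH stood at -0.80 and -0.98 in wings at -30 and -6 h, and at -0.55 and 0.38 in glands. For wing against gland at -30 and -6 h, where UQCR-6.4 was lower, POSH stood at 0.75 and 2.03. At +6 h, where UQCR-14 was called lower in wings, CG32576 stood at -1.16. The part of the overlaps in these values was not tested.

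The authors' deposited table gives 11 members lower and 1 higher in WT glands at -6 h against -30 h by the same limits, and all 11 are among the 18 called here. For ATPsynC the authors' deposited table gives a log2 fold change of -2.64 at -6 h. In the interval to +6 h the authors' deposited table gives 4 lower, all called here. For EcRi against WT glands at -6 h the authors' deposited table gives 3 higher and 1 lower, and the 3 are among the 9 called here. For wing against gland the authors' deposited table gives 1 higher and 6 lower at -30 h, where 1 and 13 were called here, and 2 higher and 7 lower at -6 h, where 3 and 4 were called here. At +6 h the authors' deposited table gives 5 higher and 4 lower with a median of -0.08 over the tested members, where 8 and 2 were called here with a median of 0.32. The authors' deposited table gives no called member in EcRi glands between -30 and -6 h, in WT wings between -30 and -6 h or in EcRi against WT wings. For EcRi against WT wings at -6 h it gives -0.08 for ND-75 and -0.03 for UQCR-C1, where -0.41 and -0.38 were fitted here. A 2-fold limit on such smaller values may pass fewer members than the same limit here. The share of all genes passing these limits in the authors' deposited tables was not counted. These counts are therefore set beside the calls here only, and are not read as a trait of the members.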

How the data were processed

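Total RNA of 20 libraries was sequenced, and per the submitters' processing notes STAR 2.7.3a, SAMtools 1.9, DESeq2 (no version) and the dm6 build were used. The authors deposited a matrix that is named for counts but holds RPKM, scaled by library size and by the gene span with introns. Each library's values were whole multiples of the value of 1 read, which gave its reads: 99.99% of 64003 low values (up to 20 reads) were whole within 0.1. Rows without values (4) and genes without a length (43) were left out. No column lacked a sample. The authors' deposited tables give log2 fold changes and adjusted p-values, turned here to the direction of each comparison.

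Library-size-scaled reads (RPM) were divided by TMM factors, with the outer 30% of log ratios and 5% of average levels trimmed off. The log2 of these values plus 1 was modelled with limma 3.58.1 in R 4.3.3 (trend, robust), with 1 mean per group over all 20 libraries. Fold changes on this scale understate the change of low genes. The 10160 genes with at least 0.558 scaled RPM in 2 libraries and 15 reads in all were tested in 15 comparisons. A call needed a Benjamini-Hochberg adjusted p below 0.05 over these genes and at least a 2-fold change. The median SE was 0.288, and 0.407 for differences of changes. The 3-read limit covers counting error only. WT glands at -6 h enter several comparisons, which therefore share libraries. No batch is given in the labels. Coordinates and overlaps came from a BDGP6 annotation, the assembly called dm6.

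Alternatives were median-of-ratios scaling, no scaling beyond library size, a pseudocount of 4, no filter on low values, voom on the recovered reads, the replicate number as a block, and each library left out. The members and lists were chosen with earlier results of these data known. The naming rule took the core subunits of complex I, SdhA to SdhD, in each comparison and complex up to 2 called members that rose most and 2 that fell most (at least 5 scaled RPM, libraries not overlapping), uncalled members where a complex had at most 5, the copies, and members too low to test. Other members named with values were chosen after these were seen. The fit was tested on simulated data for WT glands at -6 against -30 h, where it called nearly all genes changed 4-fold and a minority of those changed 2-fold. The 2-fold limit itself leaves out many genes changed 2-fold, so that minority does not measure how well the fit detects change. A member that was not called may still differ by about 2-fold. Figures used Python 3.11.15 and matplotlib 3.10.9.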

Additional observations from a re-analysis of the deposited data

Results flagged for a closer look

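In these members the difference between the effects of 2 groups under the same contrast was itself called (limma, Benjamini-Hochberg adjusted). For the log2 change from -30 to -6 h in glands, EcRi minus WT, the difference was 2.79 for ATPsynC, 1.73 for ND-ACP, 1.65 for ND-75, 1.41 for ATPsynF and 1.37 for UQCR-C1. It was 1.35 for ND-30, 1.31 for ATPsynbeta, 1.30 for ATPsyngamma, 1.11 for COX6B, 1.10 for ND-49 and 1.07 for COX4. For the copy UQCR-11L, which lies within Acsl, it was -1.39. The calls of ATPsynC, ND-ACP, ND-75, ATPsynF and UQCR-C1 held in each fit, and the others were lost without 1 library or more. The members' share of higher calls was 16.9%, against 14.3% of all genes.

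For the log2 change from -6 to +6 h in WT, wing minus gland, the difference was 1.55 for ATPsynE, 1.38 for ND-B14, 1.32 for ATPsyndelta, 1.19 for SdhD, 1.17 for ND-75 and 1.16 for ND-B17.2. It was 1.14 for ND-ASHI, 1.08 for ND-PDSW, 1.06 for COX7A, 1.04 for ND-23 and 1.02 for SdhA. ND-75 appears in both sets. None of these wing and gland calls held with each library left out in turn, and library size as the only scaling put most of them below 0. The members' share of higher calls was 16.9%, against 16.8% of all genes.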

How the results depend on the processing

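Of 92 called member results 17 kept the call under every alternative and left-out library. With library size as the only scaling the number of members called was 59 in WT glands at -6 against -30 h and 3 at +6 against -6 h, 2 in WT wings at +6 against -6 h, and 4, 63 and 56 for wing against gland at -30, -6 and +6 h. It was 20 and 60 for EcRi against WT glands at -30 and -6 h, 1 for EcRi against WT wings at -6 h, 58 for the difference of gland changes and 17 for that of wing and gland changes. The median of all genes then shifted, to -1.12 in the first of these. The share of all genes called in each alternative fit is not given here. Counts under the alternatives, here and above, therefore show how the calls depend on the fit and are not read as results about the members. Under this scaling the wing against gland difference at -6 h was 1.70 for ND-B15, 1.87 for ND-B14, 1.57 for SdhD and 1.57 for UQCR-6.4, and at +6 h 0.01 for ND-B17 and 0.56 for UQCR-14, all with the other sign. The same held for the wing and gland changes of ND-75 (-0.18), ND-23 (-0.25), ND-ASHI (-0.16), ND-PDSW (-0.26), ND-B17.2 (-0.18), SdhA (-0.32), SdhD (-0.10), COX7A (-0.26) and ATPsyndelta (-0.03). Median-of-ratios scaling gave 5 in WT glands at +6 against -6 h, 6 for wing against gland at +6 h and 3 for the wing and gland changes. A pseudocount of 4 gave 0 in WT wings at +6 h, 9 and 4 for wing against gland at -30 and -6 h, and 7 for the wing and gland changes. The voom fit gave 5 in WT glands at +6 h, 0 in WT wings at +6 h, 2 for EcRi against WT glands at -30 h, 7 for the difference of gland changes and 1 for the wing and gland changes. The cause was not tested.

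With each library left out in turn the count ran from 15 to 19 in WT glands at -6 h, 4 to 6 at +6 h, 0 to 1 in WT wings at +6 h, and 8 to 22, 5 to 10 and 7 to 11 for wing against gland at -30, -6 and +6 h. It ran from 0 to 9 and 4 to 12 for EcRi against WT glands at -30 and -6 h, 0 to 1 for EcRi against WT wings at -30 h, 8 to 16 for the difference of gland changes and 2 to 9 for the wing and gland changes. In the other comparisons it was 0 throughout. Where 1 library is left in a group, it is assumed to vary like the other groups. The share of all genes called in these fits is not given here either.

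Over 45 pairs of groups the correlation of same-numbered libraries ran from -0.04 to 0.43, and 30 were above 0.1. A shared effect of the replicate number is thus seen in part of the groups, but not in every pair, and the labels do not say what the number marks, so the libraries were not treated as paired. With the replicate block 1 member was called for EcRi against WT wings at -6 h, and the other counts stayed within 1.5 times. Levels below 3 reads in a library limit what can be said of the copies.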

Other observations

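Replicate number and level ran together in some members. In 7 of the 65 tested members the library numbered 2 lay on the same side of the library numbered 1 in all 10 groups, and in 12 more in 9 groups. The share over all genes was not counted, so this is not read as a trait of the members. ATPsynO, the subunit of the ATP synthase stalk named for its oligomycin sensitivity, was higher in the library numbered 2 in 9 groups, with a median ratio of 2.36. COX7C and ATPsynCF6 were higher in it in all 10 groups, with median ratios of 1.65 and 1.37, and ATPsyngamma was lower in all 10, with a median ratio of 0.825.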
